A study of Mus musculus with 6 samples.

Results

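The transcripts of 10 core cardiac transcription factors were measured in isolated mouse heart cells. They are Gata4, Gata6, Mef2a, Mef2c, Mef2d, Tbx5, Hand2, Nkx2-5, Myocd and Mesp1, most of them used in cocktails that convert fibroblasts into cardiomyocyte-like cells. The 10 genes were taken from a given list of names, and all 10 were among the 18193 genes on the array. For each gene the probe set annotated to that gene alone and with the highest mean over the 6 arrays stood for it. The genes had 28 such probe sets in all, and 0 of their probe sets were shared with another gene. Biotin-labelled RNA from C57BL/6J hearts was read on 6 Affymetrix arrays, with 3 groups of 2 arrays. The groups were adult cardiomyocytes (8 weeks of age, males, released by Langendorff perfusion of the heart), neonatal cardiomyocytes, and neonatal cardiac fibroblasts (both from postnatal day 1 hearts of both sexes, dissociated and separated on Percoll). Trypsin and collagenase were used for all cells, and per the labels dissociated cells were also spread on a dish and checked with the mitochondrial dye TMRM for remaining cardiomyocytes. Age, sex and isolation all change between adult and neonatal cells and cannot be told apart. Nothing in the labels shows that arrays of the same group are from different litters or preparations. Each p-value therefore rests on the spread of these arrays only, and that spread may be technical.

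Heart muscle identity is held by a small set of DNA-binding proteins that bind enhancers together and activate each other's genes. GATA4 and GATA6 are zinc finger factors, TBX5 is a T-box factor, NKX2-5 is a homeodomain factor, HAND2 is a basic helix-loop-helix factor, and the MEF2 proteins and myocardin drive contractile protein genes, myocardin as a coactivator of SRF. GATA4, MEF2C and TBX5 form the classical reprogramming cocktail, to which HAND2, MYOCD, NKX2-5 or MESP1 have been added. MESP1 marks the earliest heart precursors in the embryo and is expressed only briefly there.

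Arrays were grouped by their source name, and the labels' cell type field gives the same cells. The titles of the 2 neonatal arrays numbered 1 name the other cell type, so results are also given with the titles' grouping and without both of these arrays. The array grouped as neonatal cardiac fibroblasts, number 1, had a median of 7.56 over 10 cardiomyocyte markers (log2 values), against 13.92 on the array grouped as neonatal cardiomyocytes, number 1. Over the 6 arrays that median was 14.14 and 14.04 in adult cardiomyocytes, 13.92 and 13.54 in neonatal cardiomyocytes, and 7.56 and 10.78 in neonatal cardiac fibroblasts. The second fibroblast array thus carried more cardiomyocyte marker signal than the first. The medians of 16 leukocyte markers were 6.39 and 7.66 in adult cardiomyocytes, 6.94 and 5.26 in neonatal cardiomyocytes, and 11.65 and 8.56 in neonatal cardiac fibroblasts, highest on the first fibroblast array. Leukocyte markers were lower in mean in neonatal cardiomyocytes than in neonatal cardiac fibroblasts for 16 of 16 genes. The medians of 14 fibroblast markers were 7.80 and 9.40 in adult cardiomyocytes, 9.38 and 10.14 in neonatal cardiomyocytes, and 12.83 and 12.12 in neonatal cardiac fibroblasts. The medians of 12 endothelial markers were 8.31 and 9.54 in adult cardiomyocytes, 8.72 and 7.79 in neonatal cardiomyocytes, and 6.42 and 7.30 in neonatal cardiac fibroblasts. They were thus lower on both fibroblast arrays than on all 4 cardiomyocyte arrays. The part of these other cells in the factors' levels was not tested. In such bulk samples, fewer cells of a type and less RNA per cell cannot be told apart.

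Nkx2-5, Tbx5, Mef2c and Mef2d were the factors that rose in adult cardiomyocytes over neonatal cardiac fibroblasts. Their upstream sequences, where the RefSeq table has an entry, are shown beside that of Hand2, a factor with no called difference. For Mef2c only the second of 3 starts is printed, the only Mef2c window that holds GATAA. Each stretch is the 250 bases before a transcription start in GRCm38.p6, credited to RefSeq, 5′ to 3′ on the gene's strand. Capitals mark the GATA factor motif GATAA on either strand.
Nkx2-5 (chr17:26841566-26841815, minus strand): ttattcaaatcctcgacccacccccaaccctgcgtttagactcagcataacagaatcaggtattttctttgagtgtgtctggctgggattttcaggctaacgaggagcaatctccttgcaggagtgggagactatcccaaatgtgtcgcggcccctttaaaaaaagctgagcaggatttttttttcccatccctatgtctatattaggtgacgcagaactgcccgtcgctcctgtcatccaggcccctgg
Mef2c, the second of 3 starts (chr13:83523406-83523655, plus strand): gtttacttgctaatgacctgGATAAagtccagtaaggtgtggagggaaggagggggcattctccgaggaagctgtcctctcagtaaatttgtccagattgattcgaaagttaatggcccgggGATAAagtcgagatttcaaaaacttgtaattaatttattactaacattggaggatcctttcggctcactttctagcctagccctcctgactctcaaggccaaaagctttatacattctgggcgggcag
Mef2d (chr3:88142122-88142371, plus strand): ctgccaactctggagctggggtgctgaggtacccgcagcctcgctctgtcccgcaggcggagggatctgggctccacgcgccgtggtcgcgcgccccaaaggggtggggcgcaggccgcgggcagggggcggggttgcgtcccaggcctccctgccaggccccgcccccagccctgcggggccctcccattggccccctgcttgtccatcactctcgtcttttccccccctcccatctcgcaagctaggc
Hand2 (chr8:57320733-57320982, plus strand): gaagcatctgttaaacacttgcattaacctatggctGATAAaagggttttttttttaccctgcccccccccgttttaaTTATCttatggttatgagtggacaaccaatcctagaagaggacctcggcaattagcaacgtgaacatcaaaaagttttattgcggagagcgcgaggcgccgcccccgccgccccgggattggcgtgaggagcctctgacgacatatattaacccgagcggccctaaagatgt
RefSeq entries were at hand for 6 of the 10 genes, with 8 windows, since Mef2c has 3. The motif GATAA lay in 2 of the 8 windows, the second Mef2c start and the Hand2 start, with 2 matches in each. In the Mef2c window they began 230 and 128 bases before the start, and in the Hand2 window 214 and 172 bases before it. Of all 32851 RefSeq windows of the same length, 22.6% held GATAA. The NKX2-5 motif AAGTG was in all 3 Mef2c windows and the Hand2 window, against 40.7% of all windows. The T-box motif GGTGTNA was in 0 of the 8 windows, against 8.6% of all windows. The E-box CANNTG, the site of HAND2-type factors, was in the Nkx2-5, Hand2 and Mesp1 windows and in 2 of the 3 Mef2c windows, against 66.2% of all windows. The pattern CTANNNNTAG, looser than the MEF2 site because it leaves the middle bases open, was in the Mesp1 window alone, against 3.2% of all windows. MEF2 sites have A or T at these bases, and the Mesp1 match held G and C there, so it was not a MEF2 site. Both strands were searched for every motif, and matches of different motifs overlapped at 1 place in the Hand2 window and 1 in the first Mef2c window. A match is a description of letters and no match says nothing about the factor.

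The largest called difference was in Nkx2-5, which encodes the homeodomain factor of the early heart tube. Its log2 values were 9.66 and 8.60 in adult cardiomyocytes, 10.19 and 9.14 in neonatal cardiomyocytes, and 5.85 and 6.24 in neonatal cardiac fibroblasts. All 4 cardiomyocyte arrays lay above both fibroblast arrays, and both fibroblast values were under the median of all gene values, 6.59. The adult difference from neonatal cardiac fibroblasts was 3.09 ± 0.50 (log2, SE), or 8.50-fold (limma, adjusted p = 0.0177). The neonatal difference was 3.62 ± 0.50, or 12.3-fold, and its adjusted p over all genes was 0.0565. A single probe set measures Nkx2-5 on this array.

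Tbx5, whose product pairs with NKX2-5 and GATA4 at heart enhancers, followed the same order. It had log2 values of 7.65 and 7.61 in adult cardiomyocytes, 8.94 and 7.82 in neonatal cardiomyocytes, and 5.82 and 6.10 in neonatal cardiac fibroblasts. The 2 adult arrays were nearly equal, both were just below the lower neonatal cardiomyocyte array, and the fibroblasts were lowest. Both fibroblast values were under the median of all gene values, 6.59. Tbx5 rose 3.18-fold in adult cardiomyocytes over neonatal cardiac fibroblasts, a log2 difference of 1.67 ± 0.39 (SE; limma, adjusted p = 0.0411). In neonatal cardiomyocytes the difference from the fibroblasts was 2.42 ± 0.39 (adjusted p = 0.0686). A second Tbx5 probe set gave log2 differences of 1.75 and 2.15 for these comparisons, with values of 7.28 and 5.57 in adult cardiomyocytes, 8.26 and 5.39 in neonatal cardiomyocytes, and 4.73 and 4.62 in neonatal cardiac fibroblasts. On it the spread within each cardiomyocyte group was far wider, and with the mean of both probe sets the adult comparison had an adjusted p of 0.148. With all probe sets tested, the chosen Tbx5 probe set had an adjusted p of 0.0533 in that comparison (limma).

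Myocd, the coactivator that turns on smooth and cardiac muscle genes through SRF, had the largest neonatal difference in log2 value of the 10 genes. Its values were 8.95 and 9.26 in adult cardiomyocytes, 10.22 and 10.71 in neonatal cardiomyocytes, and 4.88 and 7.91 in neonatal cardiac fibroblasts. The 3 groups did not overlap, but the fibroblast arrays were 3.03 apart. The array with the higher Myocd value is the second fibroblast array, on which the cardiomyocyte marker median was also higher, 10.78 against 7.56 on the first. The median of 12 smooth muscle and pericyte markers, cells that also use Myocd, was 8.39 and 9.68 in adult cardiomyocytes, 8.68 and 7.89 in neonatal cardiomyocytes, and 6.48 and 8.14 in neonatal cardiac fibroblasts, likewise higher on the second fibroblast array. The smooth muscle list was split, with 6 of its 12 genes higher and 6 lower in mean in neonatal cardiomyocytes than in neonatal cardiac fibroblasts. In adult cardiomyocytes over neonatal cardiac fibroblasts 5 were higher and 7 lower. Its summed signal (log2 of the summed linear values) was highest on the fibroblast arrays, 14.75 and 15.27, against 13.52 to 14.57 in cardiomyocytes. The part of either marker list in the Myocd values was not tested. Myocd differed by 4.07 ± 0.97 in neonatal cardiomyocytes over neonatal cardiac fibroblasts (log2, SE; limma, adjusted p = 0.133) and by 2.71 ± 0.97 in adult cardiomyocytes over neonatal cardiac fibroblasts (adjusted p = 0.111). Without the second fibroblast array these differences were 5.59 (adjusted p = 0.0127) and 4.23 (adjusted p = 0.0140). Without the first fibroblast array they were 2.56 (adjusted p = 0.128) and 1.20 (adjusted p = 0.107). A second Myocd probe set read 8.23 and 6.99 in adult cardiomyocytes, 8.25 and 6.56 in neonatal cardiomyocytes, and 5.19 and 4.55 in neonatal cardiac fibroblasts. There the fibroblast arrays lay 0.64 apart and in the other order. The mean of both Myocd probe sets gave 2.73 in adult cardiomyocytes over neonatal cardiac fibroblasts (adjusted p = 0.0202).

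**Figure D1:**
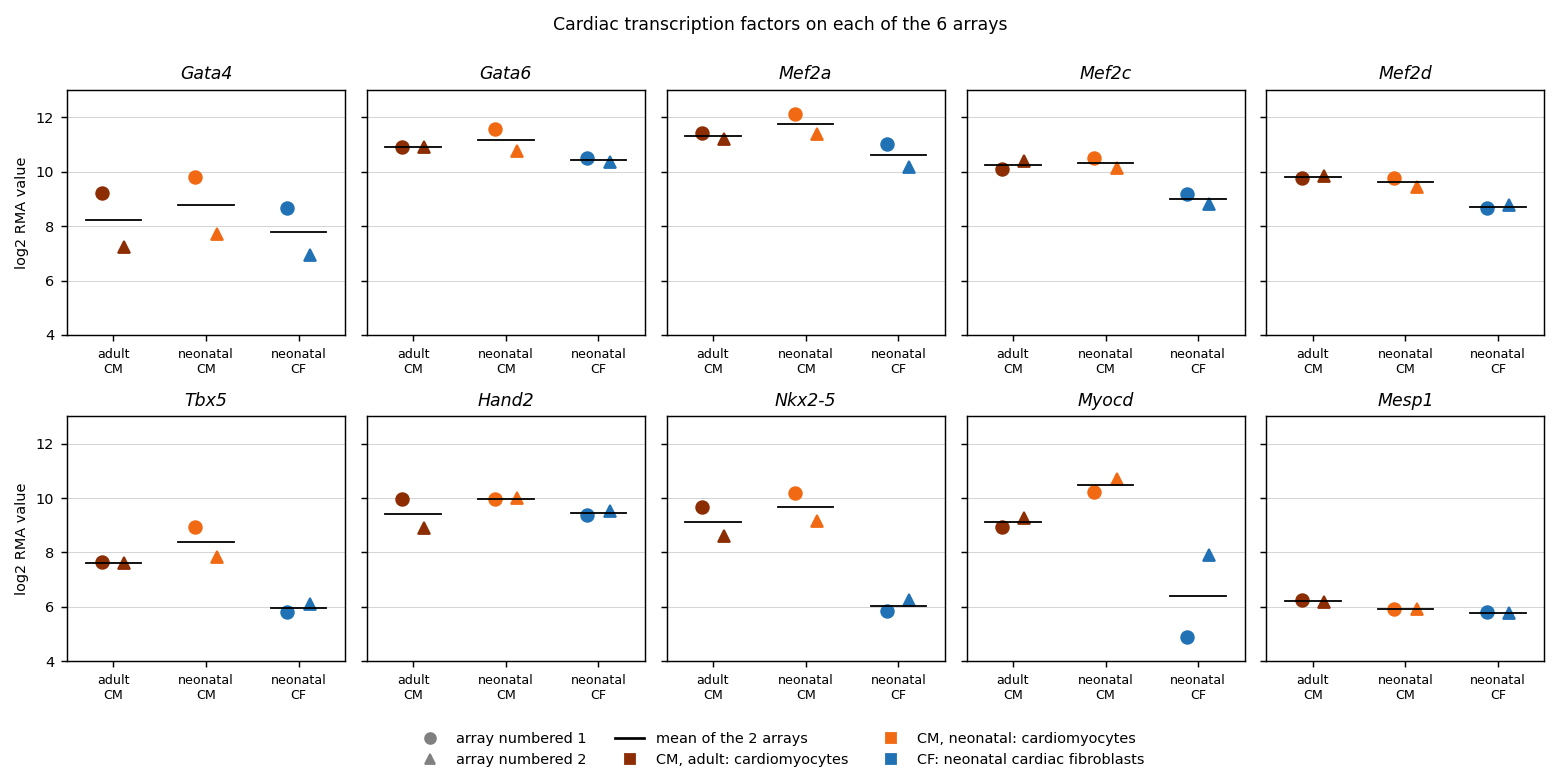
Log2 RMA value (vertical axis) of each of the 10 factors on every array, by group; circles are arrays numbered 1, triangles arrays numbered 2, and lines the mean of the 2 arrays. All factors but Gata4 and Hand2 sit higher on all 4 cardiomyocyte arrays than on both fibroblast arrays, and Gata4 is split by array number in all 3 groups.

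The 3 MEF2 genes, which encode MADS-box factors of muscle genes, had higher means in both kinds of cardiomyocytes than in fibroblasts. Mef2c, the family member of the reprogramming cocktail, had log2 values of 10.11 and 10.39 in adult cardiomyocytes, 10.52 and 10.14 in neonatal cardiomyocytes, and 9.17 and 8.82 in neonatal cardiac fibroblasts. The cardiomyocyte groups overlapped and both stood above the fibroblasts. Mef2c rose 2.39-fold in adult cardiomyocytes over neonatal cardiac fibroblasts, by 1.26 ± 0.24 (log2, SE; limma, adjusted p = 0.0247). The neonatal difference was 1.34 ± 0.24 (adjusted p = 0.0795). Endothelial cells also use Mef2c, and the 12 endothelial markers had median log2 differences of 2.37 in adult cardiomyocytes and 1.52 in neonatal cardiomyocytes over neonatal cardiac fibroblasts, with 4 and 0 of them called higher. Their part in the Mef2c values was not tested. All 5 Mef2c probe sets had non-overlapping arrays in both comparisons, with log2 differences of 0.90 to 1.26 in adult cardiomyocytes and 0.95 to 1.34 in neonatal cardiomyocytes over neonatal cardiac fibroblasts.

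Mef2d, the most widely expressed MEF2 gene, read 9.77 and 9.86 in adult cardiomyocytes, 9.79 and 9.44 in neonatal cardiomyocytes, and 8.65 and 8.78 in neonatal cardiac fibroblasts. It rose 2.14-fold in adult cardiomyocytes over neonatal cardiac fibroblasts, by 1.09 ± 0.20 (log2, SE; limma, adjusted p = 0.0212), and the neonatal difference was 0.90 ± 0.20 (adjusted p = 0.110). Its arrays were close within each group on this probe set. Both other Mef2d probe sets had higher means in cardiomyocytes, but with the mean of all 3 the adult comparison had a log2 difference of 0.81 and an adjusted p of 0.120.

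Mef2a, the main MEF2 protein of the postnatal heart, read 11.41 and 11.21 in adult cardiomyocytes, 12.13 and 11.38 in neonatal cardiomyocytes, and 11.03 and 10.18 in neonatal cardiac fibroblasts. Both cardiomyocyte groups lay above the fibroblasts on each of its 6 probe sets. The log2 differences on the chosen probe set were 0.70 ± 0.39 in adult cardiomyocytes (limma, adjusted p = 0.248) and 1.15 ± 0.39 in neonatal cardiomyocytes (adjusted p = 0.245) over neonatal cardiac fibroblasts. Over its 6 probe sets they ran from 0.37 to 0.94 and from 0.92 to 1.51.

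Neither GATA factor had a called difference on the probe set that stood for it. Gata6, which shares much of GATA4's role in heart formation, read 10.90 and 10.92 in adult cardiomyocytes, 11.57 and 10.78 in neonatal cardiomyocytes, and 10.49 and 10.37 in neonatal cardiac fibroblasts. The fibroblasts were lowest on all arrays, and the log2 differences were 0.48 ± 0.29 in adult cardiomyocytes (SE; limma, adjusted p = 0.289) and 0.74 ± 0.29 in neonatal cardiomyocytes (adjusted p = 0.308) over neonatal cardiac fibroblasts. A further Gata6 probe set read 8.20 and 7.98 in adult cardiomyocytes, 7.29 and 7.03 in neonatal cardiomyocytes, and 6.83 and 7.06 in neonatal cardiac fibroblasts. On that probe set the adult cardiomyocytes stood alone above both neonatal groups, with a log2 difference of 1.15 ± 0.20 from the fibroblasts (limma over all probe sets, adjusted p = 0.0257) and of 0.93 ± 0.20 from neonatal cardiomyocytes (adjusted p = 0.103). The remaining Gata6 probe set gave 0.63 in adult cardiomyocytes and 0.71 in neonatal cardiomyocytes over neonatal cardiac fibroblasts, and the 2 neonatal groups overlapped on it.

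Gata4, the zinc finger factor of the reprogramming cocktail, differed more between the array numbers than between the cells. It read 9.21 and 7.23 in adult cardiomyocytes, 9.82 and 7.73 in neonatal cardiomyocytes, and 8.65 and 6.95 in neonatal cardiac fibroblasts. Every array numbered 1 lay above every array numbered 2, by 1.98 in adult cardiomyocytes, 2.09 in neonatal cardiomyocytes and 1.70 in neonatal cardiac fibroblasts. The second Gata4 probe set showed wider gaps in the same direction, 3.18, 3.52 and 2.62 in these groups. Over all genes, the array numbered 1 minus the array numbered 2 had a 95th percentile of 0.64 in adult cardiomyocytes, 0.96 in neonatal cardiomyocytes and 1.01 in neonatal cardiac fibroblasts. All 3 arrays numbered 1 lay above all 3 arrays numbered 2 for 820 genes, 4.51% of those tested, and 16 genes, Gata4 among them, had a gap in every group at least as wide as Gata4's smallest.

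Against this spread the Gata4 log2 differences were 0.42 ± 1.05 in adult cardiomyocytes and 0.97 ± 1.05 in neonatal cardiomyocytes over neonatal cardiac fibroblasts (SE; limma, adjusted p = 0.796 and 0.763). Within the arrays numbered 1, neonatal cardiomyocytes were 1.17 above neonatal cardiac fibroblasts, and within those numbered 2, 0.77 above. Within each number the order of the groups was the same, neonatal cardiomyocytes above adult cardiomyocytes above neonatal cardiac fibroblasts. The sign of the neonatal difference turned, to -0.07, when the first neonatal cardiomyocyte array was left out. The array's 3′ and 5′ control probe sets for beta-actin, a gauge of RNA integrity, differed by 0.80 and 0.81 in adult cardiomyocytes, 0.77 and 0.45 in neonatal cardiomyocytes, and 0.26 and 0.31 in neonatal cardiac fibroblasts (log2, 3′ minus 5′). The beta-actin gap was not larger on the same array number in every group. The transferrin receptor gap was larger on the array numbered 1 in every group, by 0.04 in adult cardiomyocytes, 0.15 in neonatal cardiomyocytes and 0.14 in neonatal cardiac fibroblasts. For Gapdh the number 1 minus number 2 difference of the gap was -0.05, -0.03 and -0.13 in these groups. The part of RNA integrity in the Gata4 values was not tested.

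**Figure D2:**
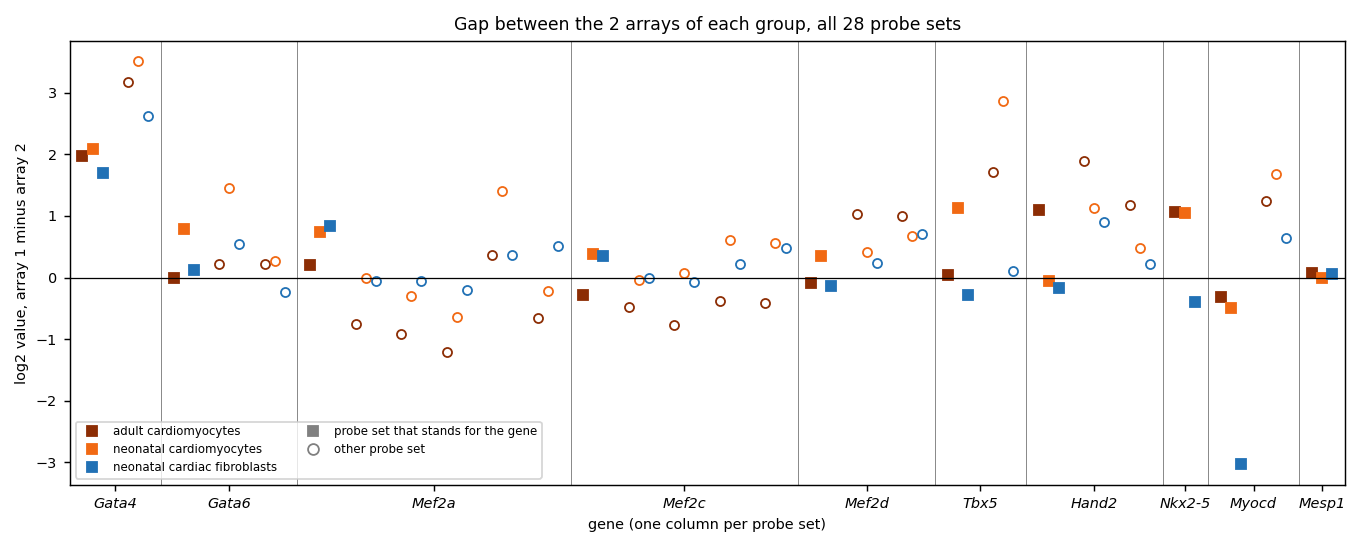
Log2 value on the array numbered 1 minus that on the array numbered 2 (vertical axis) for each of the 28 probe sets, grouped by gene along the horizontal axis; colours are the groups, filled squares the probe set that stands for the gene and open circles the others. Both Gata4 probe sets lie between 1.70 and 3.52 in every group, while the Myocd square of the fibroblasts lies at -3.03.

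Other probe sets split by number as well. A second Hand2 probe set read 6.79 and 4.89 in adult cardiomyocytes, 6.55 and 5.42 in neonatal cardiomyocytes, and 5.69 and 4.79 in neonatal cardiac fibroblasts. The array numbered 1 was the higher on 16 of 28 probe sets in adult cardiomyocytes, 20 of 28 in neonatal cardiomyocytes and 17 of 28 in neonatal cardiac fibroblasts. The gap was not in 1 direction for every gene, since Mef2c read higher on the array numbered 2 on all 5 probe sets in adult cardiomyocytes. The cause of the gaps was not tested.

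Hand2, the helix-loop-helix factor of right ventricle formation, had no called difference in any comparison. Its log2 values were 9.98 and 8.88 in adult cardiomyocytes, 9.95 and 10.01 in neonatal cardiomyocytes, and 9.37 and 9.54 in neonatal cardiac fibroblasts. The adult arrays lay on either side of the fibroblast arrays. The differences from neonatal cardiac fibroblasts were -0.03 ± 0.38 in adult cardiomyocytes (95% interval -0.99 to 0.93; limma, adjusted p = 0.964) and 0.53 ± 0.38 in neonatal cardiomyocytes (95% interval -0.43 to 1.48; adjusted p = 0.598). The first turned positive with the mean of the 3 Hand2 probe sets, and also after quantile normalization or without either the second fibroblast or the second adult array.

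Mesp1, the factor of the earliest heart precursors, had no called difference. It read 6.24 and 6.16 in adult cardiomyocytes, 5.92 on both arrays of neonatal cardiomyocytes, and 5.82 and 5.76 in neonatal cardiac fibroblasts. All 6 values were within 0.48 of each other. The adult arrays were above all others, by 0.41 ± 0.16 over neonatal cardiac fibroblasts (log2, SE; limma, adjusted p = 0.130) and 0.28 ± 0.16 over neonatal cardiomyocytes (95% interval -0.12 to 0.68). Mesp1 was also the only factor that did not pass a filter at the median of all gene values, 6.59. The deposited values carry no detection call, so whether RNA of a gene was present at such levels cannot be read from them.

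The first comparison set neonatal cardiomyocytes against neonatal cardiac fibroblasts of the same age, sexes and isolation. All 10 factors had higher means in neonatal cardiomyocytes, with a median log2 difference of 1.06, against a median of -0.02 and 47.4% higher means over all 18193 genes. Of the 10 factors, 9 had both cardiomyocyte arrays above both fibroblast arrays, Gata4 being the exception, where 22.3% of all genes did. On the level of probe sets, 28 of 28 had higher means and 21 did not overlap, though probe sets of a gene share its RNA. With limma, 0 of the 10 passed an adjusted p of 0.05, against 0.819% of all genes called in either direction (149 genes), and 6 had an unadjusted p under 0.05, as 16.3% of all genes did. Those 6 were Nkx2-5, Tbx5, Mef2c, Mef2d, Myocd and Mef2a.

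Which factors were called changed with the setting of the test and with single arrays. A filter kept only genes whose highest value over the 6 arrays was above the median of all gene values, 6.59. With it, Nkx2-5 (limma, adjusted p = 0.0364) and Tbx5 (adjusted p = 0.0468) passed. Both were under that median on both fibroblast arrays and met the filter through cardiomyocyte arrays alone. The filter was therefore not independent of the comparison, and these p-values lend it no further support. With a variance trend on intensity Nkx2-5 passed (adjusted p = 0.0443). Without the second neonatal cardiomyocyte array Nkx2-5 and Tbx5 passed at log2 differences of 4.15 and 2.98, and without the second fibroblast array Myocd alone did. With the groups as in the titles, 8 of the 10 differences changed sign, with Nkx2-5 at -0.72 and Tbx5 at -0.70, and 0 were called. Without both neonatal arrays numbered 1 all 10 kept their sign, with Nkx2-5 at 2.90 and Tbx5 at 1.71, and 0 were called.

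**Figure D3:**
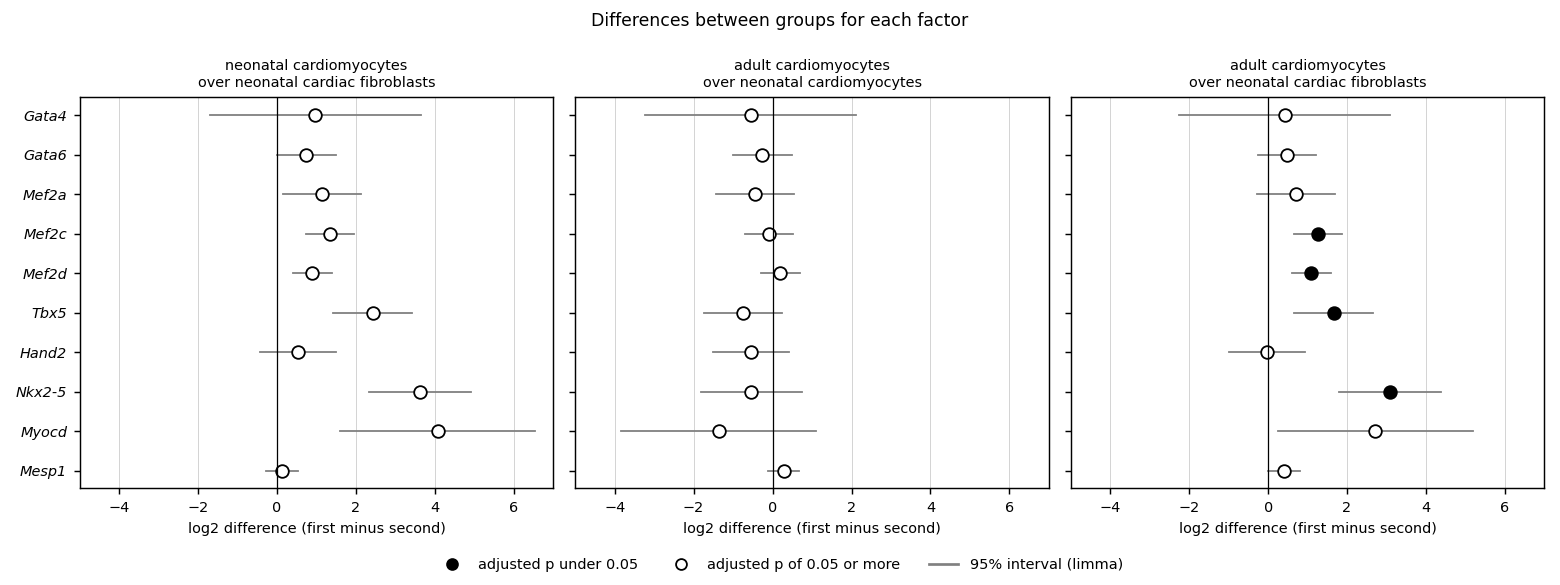
Log2 difference (horizontal axis) of each factor in the 3 comparisons, first named group minus second; points are limma estimates, lines 95% intervals, and filled points have an adjusted p under 0.05. Mef2c, Mef2d, Tbx5 and Nkx2-5 are filled in adult cardiomyocytes over neonatal cardiac fibroblasts, and in adult over neonatal cardiomyocytes all 10 intervals cross 0.

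The second comparison set adult against neonatal cardiomyocytes, and no factor was called. Of the 10 factors, 8 had lower means in adult cardiomyocytes, and Mef2d and Mesp1 had higher ones. The median log2 difference was -0.49, against 0.09 over all genes. With limma 0 of 10 passed in either direction, against 2.30% of all genes (418 genes), and 0 of 10 had an unadjusted p under 0.05, against 22.8% of all genes. Tbx5 and Myocd had both adult arrays below both neonatal arrays, as 23.8% of all genes did, and Mesp1 had both above, as 33.9% of all genes did. Tbx5 differed by -0.75 ± 0.39 (95% interval -1.75 to 0.25) and Myocd by -1.36 ± 0.97 (95% interval -3.83 to 1.11). The second Myocd probe set gave 0.21, so its direction differed between probe sets. Mef2a was lower in adult cardiomyocytes on all 6 probe sets, by 0.38 to 0.65 in log2 value, and did not overlap on 3 of them. Mef2d differed by 0.20 (95% interval -0.30 to 0.70). Gata4, Gata6 and Mef2c changed sign without the first neonatal cardiomyocyte array, to 0.49, 0.13 and 0.11. With the titles' grouping 7 of the 10 differences changed sign, and none was called under any alternative setting run.

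The third comparison set adult cardiomyocytes against neonatal cardiac fibroblasts, and shares its arrays with the other two. Its groups differ in cell type, age, sex and isolation at once, and these cannot be told apart in it. Of the 10 factors, 9 had higher means in adult cardiomyocytes, Hand2 being the exception, and the median log2 difference was 0.90, against 0.09 over all genes. With limma 4 of 10 rose, Nkx2-5, Mef2d, Mef2c and Tbx5, against 10.1% of all genes called higher and 21.0% called in either direction. Both adult arrays lay above both fibroblast arrays for 8 of the 10, Gata4 and Hand2 being the exceptions, against 37.8% of all genes. The same 4 factors were called without either neonatal cardiomyocyte array, but not without an adult or a fibroblast array. Without the first fibroblast array, the first adult array or the second adult array, 0 of the 10 factors passed, and without the second fibroblast array only Myocd did. Over these 4 settings the differences of the 4 called factors stayed between 2.56 and 3.62 for Nkx2-5, 1.03 and 1.16 for Mef2d, 1.08 and 1.43 for Mef2c, and 1.53 and 1.81 for Tbx5. With the titles' grouping 0 of 10 passed and Nkx2-5 differed by 0.92 (adjusted p = 0.784). Without both neonatal arrays numbered 1, 0 of 10 passed and it differed by 2.89 (adjusted p = 0.0905).

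In the order of the group means, neonatal cardiac fibroblasts were lowest for 9 of the 10 factors. Neonatal cardiomyocytes were highest, followed by adult cardiomyocytes, for 7 factors. Mef2d and Mesp1 were highest in adult cardiomyocytes, and Hand2 had adult cardiomyocytes lowest. Between adult and neonatal cardiomyocytes, neighbours in this order for 9 factors, no difference exceeded the spread between arrays by the test. Between adult cardiomyocytes and neonatal cardiac fibroblasts it did for the 4 called factors.

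The genes most like each factor over the 6 arrays were picked by Pearson's r among 8937 genes with a range of at least 1 log2 unit, as a description over 6 arrays that share groups. Nkx2-5 was closest to Gramd3 (r = 0.998) and Popdc2 (r = 0.996), a membrane protein gene of cardiomyocytes. Popdc2 read 12.01 and 10.80 in adult cardiomyocytes, 12.19 and 11.19 in neonatal cardiomyocytes, and 7.13 and 7.86 in neonatal cardiac fibroblasts. Tbx5 was closest to Herc3 (r = 0.992) and Galnt18 (r = 0.990), and Myocd to Mrps22 (r = 0.997) and Ciao2b (r = 0.993). Mef2c was closest to Higd2a (r = 0.994) and Ppp1r3d, Mef2d to Grhpr (r = 0.997) and Pank1, Mef2a to Smim4 (r = 0.990) and Nup210, and Gata6 to Grk3 (r = 0.991) and Stk39. Gata4's closest were Rsph3a (r = 0.994) and Fiz1, which were also higher on the array numbered 1 in every group. Hand2 had none above 0.95, the closest being Camsap3 (r = 0.858) and Prrx2, while 462 genes were above 0.95 for Mef2d.

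Among the factors' partners, 36 measured cofactors and further cardiac transcription factors, a few passed the test. In neonatal cardiomyocytes over neonatal cardiac fibroblasts 3 of the 36 rose and 0 fell, where 0.819% of all genes were called, with a median log2 difference of 0.39. They were Smyd1, a muscle histone methyltransferase, at 4.75 ± 0.54, Esrrg, an orphan receptor of oxidative metabolism, at 4.30 ± 0.49, and Prdm16, a chromatin factor of ventricular identity, at 3.05 ± 0.35 (log2, SE; limma, adjusted p = 0.0441 for each). Smyd1 read 11.03 and 10.85 in adult cardiomyocytes, 10.57 and 10.65 in neonatal cardiomyocytes, and 5.03 and 6.69 in neonatal cardiac fibroblasts. In adult cardiomyocytes over neonatal cardiac fibroblasts 7 of the 36 rose and 3 fell, where 10.1% of all genes rose and 11.0% fell, with a median of 0.46. Esrrg, Smyd1 and Prdm16 again rose, as did Hopx, a homeodomain-only regulator, at 5.05 ± 0.76 (adjusted p = 0.0149), and the Iroquois genes Irx1, Irx2 and Irx4. Tbx18, a T-box factor of epicardium and pacemaker region, fell (-3.92, adjusted p = 0.00969), and so did Tbx20, a T-box factor of chamber muscle (-1.51), and Mrtfa, another SRF coactivator (-1.89).

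Tbx18 and Tbx20 were also called between the ages. In adult over neonatal cardiomyocytes 0 of the 36 partners rose and 2 fell, where 2.30% of all genes were called, Tbx18 with a log2 difference of -3.29 (adjusted p = 0.0425) and Tbx20 with -1.88 (limma, adjusted p = 0.0363), while the list's median was -0.05. Tbx20 read 10.29 and 10.13 in adult cardiomyocytes, 11.87 and 12.31 in neonatal cardiomyocytes, and 11.53 and 11.92 in neonatal cardiac fibroblasts, so both neonatal cell types stood above the adult cells. Tbx18 read 5.26 and 6.17 in adult cardiomyocytes, 8.48 and 9.53 in neonatal cardiomyocytes, and 9.54 and 9.74 in neonatal cardiac fibroblasts. The median of 11 epicardial and mesothelial markers, a list that includes Tbx18, was 5.56 and 5.77 in adult cardiomyocytes, 7.48 and 8.25 in neonatal cardiomyocytes, and 10.14 and 8.40 in neonatal cardiac fibroblasts. In the comparison of ages, leaving out any single array gave 0 calls in the list, and leaving out either adult array gave 0 in the other comparisons too. In neonatal cardiomyocytes over neonatal cardiac fibroblasts the calls of Smyd1, Esrrg and Prdm16 were lost without the first array of either group. Without the second array of either group Prdm16 and Esrrg kept theirs, and Smyd1 kept its call without the second fibroblast array. For adult cardiomyocytes over neonatal cardiac fibroblasts fewer partners were called without either fibroblast array. In neonatal cardiomyocytes over neonatal cardiac fibroblasts, 0 of the 36 were called with the mean of all probe sets. The same held with only the 4 arrays compared, and after quantile normalization only Smyd1 was called. With the titles' grouping 0 of the list were called in all 3 comparisons. Without both neonatal arrays numbered 1, calls remained only in adult cardiomyocytes over neonatal cardiac fibroblasts, all of them higher.

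The genes that these factors are reported to switch on, most of them contractile, calcium handling or metabolic genes of heart muscle, had larger median differences over fibroblasts than the factors. Of 31 measured target genes, all 31 had both neonatal cardiomyocyte arrays above both fibroblast arrays, where 22.3% of all genes did, with a median log2 difference of 4.44, against 1.06 for the factors. Of these 2 were called, Hrc, a calcium-binding protein of the sarcoplasmic reticulum, at 3.16 ± 0.38 and Xirp1, an actin-binding protein of intercalated discs, at 4.52 ± 0.54 (limma, adjusted p = 0.0459 and 0.0460). In adult cardiomyocytes over neonatal cardiac fibroblasts 21 rose and 0 fell, where 10.1% of all genes rose, with a median of 4.60. Hrc was first among them at 6.26 ± 0.38 (adjusted p = 0.00411), followed by Corin, the protease that activates natriuretic peptides, at 6.57 ± 0.74, Xirp1 at 4.52, and Lmod2, a thin filament protein, at 6.36 ± 0.84. Hrc also rose in adult over neonatal cardiomyocytes, by 3.10 ± 0.38 (adjusted p = 0.0332), the only one of the 31 to be called there. The age call of Hrc was kept without the first neonatal cardiomyocyte array, and it was lost when any other single array was left out, without both neonatal arrays numbered 1, with the titles' grouping and with only the 4 arrays compared. Slc8a1, the sodium-calcium exchanger, was called lower instead without either fibroblast array and with only the 4 arrays compared. Hrc read 12.08 and 12.05 in adult cardiomyocytes, 9.50 and 8.42 in neonatal cardiomyocytes, and 5.69 and 5.93 in neonatal cardiac fibroblasts.

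The medians and calls of target genes moved with single arrays, and the counts over all genes moved too, as given below. Without the second fibroblast array, the median log2 differences over neonatal cardiac fibroblasts were 6.02 in neonatal cardiomyocytes and 6.10 in adult cardiomyocytes. Without the first fibroblast array they were 3.04 and 2.95. Hrc and Xirp1 lost their calls in neonatal cardiomyocytes over neonatal cardiac fibroblasts without the first array of either neonatal group or without either adult array. Xirp1 also lost its call there without the second neonatal cardiomyocyte array, and Hrc without the second fibroblast array. Both calls were lost with the mean of all probe sets, after quantile normalization and with only the 4 arrays compared. In adult cardiomyocytes over neonatal cardiac fibroblasts, all or nearly all calls were lost without either adult array. The medians of the 31 genes on the fibroblast arrays were 6.90 and 9.88, while those of the 10 factors were 8.65 and 8.35. With the titles' grouping 0 targets were called over neonatal cardiac fibroblasts, with medians of 1.49 in adult cardiomyocytes and -1.56 in neonatal cardiomyocytes. Without both neonatal arrays numbered 1, the medians were 2.95 in adult cardiomyocytes and 2.86 in neonatal cardiomyocytes, and the neonatal calls were lost. The target genes and cardiomyocyte markers overlap in membership and both lists were chosen with results of these arrays known.

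**Figure D4:**
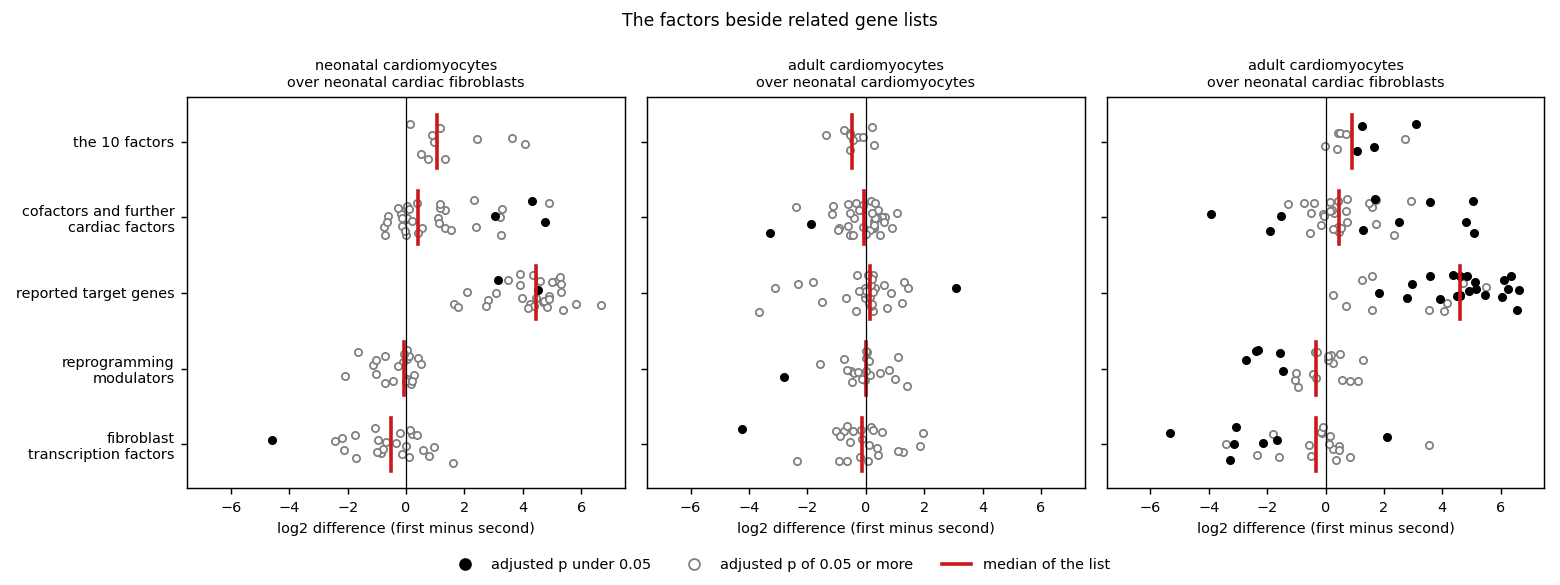
Log2 difference (horizontal axis) of every measured gene in 5 lists (rows) for the 3 comparisons, first named group minus second; filled points have an adjusted p under 0.05 and red bars are list medians. Target genes lie far to the right of the factors over neonatal cardiac fibroblasts, with medians of 4.44 and 4.60 against 1.06 and 0.90.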

How the data were processed

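Total RNA of isolated heart cells was hybridised to 6 Affymetrix arrays, 2 for each group. The deposited table holds log2 values per probe set, which the authors made with RMA, per the submitters' processing notes. This method subtracts background, equalises the arrays' quantiles and combines the probes of each set. The sources used here give neither its version nor whether all arrays went through it as a single batch. Log2 differences can be compressed near the floor, and there is no detection call or depth, so the number of arrays limits the precision.

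Of 45101 probe sets, 64 were controls, and GEO's platform annotation named 34945 to 1 gene, 932 to several genes and 9160 to none. Each of 18193 genes was represented by its probe set of highest mean. A model with 3 group means was fitted to all 6 arrays with limma 3.58.1 in R 4.3.3 (lmFit and eBayes, 3 residual degrees of freedom), with Benjamini-Hochberg adjustment over all genes and a threshold of 0.05. The fit was tested on simulated data. Differences are given ± SE.

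All 10 factors were named, but the values of their further probe sets were not all printed. From each further list, the genes past the threshold were named, at most the 4 of smallest adjusted p in a direction, with others given as counts or where a statement turns on them. The 10 factors, the lists and the tests were chosen with earlier results of these data known. Upstream sequences and motif shares come from RefSeq tables of GRCm38.p6, while the sources used here name no build for the array values. Alternatives were the mean of all probe sets, a test of all probe sets, a filter at the median level, a replicate block, an intensity trend, quantile normalization, the 4 arrays compared alone, the titles' grouping, and leaving out arrays.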

Additional observations from a re-analysis of the deposited data

How the results depend on the processing

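With 2 arrays a group, counts of called genes moved with many settings, and the cause was not tested. Called factors in neonatal cardiomyocytes over neonatal cardiac fibroblasts (0) became 2 with the filter on low values and 1 with the intensity trend, and ran from 0 to 2 with 1 array left out. In adult over neonatal cardiomyocytes they were 0 under every alternative run. For adult cardiomyocytes over neonatal cardiac fibroblasts (4) they were 0 with the titles' grouping and 0 without both neonatal arrays numbered 1, and ran from 0 to 4 with 1 array left out. All genes called in neonatal cardiomyocytes over neonatal cardiac fibroblasts (149) became 59 with the mean of probe sets, 337 with the filter, 248 with the intensity trend, and 0 with all probe sets tested, with the titles' grouping, without both neonatal arrays numbered 1 and with only the 4 arrays compared, and ran from 0 to 437 with 1 array left out (limma; 2957 had an unadjusted p under 0.05 with all arrays). In adult over neonatal cardiomyocytes (418) they were 114 with the titles' grouping, 0 without both neonatal arrays numbered 1 and 164 with the 4 arrays alone, and ran from 0 to 164 with 1 array left out. For adult cardiomyocytes over neonatal cardiac fibroblasts (3829) they were 6196 with all probe sets tested, 137 with the titles' grouping and 717 without both neonatal arrays numbered 1, and ran from 0 to 3823 with 1 array left out. The counts with all probe sets tested, 6196 among them, are of probe sets, 45037 in all, and not of genes. They cannot be set directly beside the counts of genes. Same-numbered arrays deviated together with correlations of 0.18 to 0.27, but with 2 pairs the array numbers were not taken to pair the samples. With the array number as a replicate block, 0, 607 and 4811 genes were called in the 3 comparisons, in the order above, and 0, 0 and 4 of the factors. In neonatal cardiomyocytes over neonatal cardiac fibroblasts 0 partners, 0 target genes and 0 fibroblast factors were then called, so Smyd1, Prdm16, Esrrg, Hrc, Xirp1 and Tcf21 lost their calls, while the age calls of Tbx18, Tbx20, Hrc, Ezh2 and Plagl1 were kept. A group left with 1 array was assumed to vary like the other groups.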

Other observations

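Genes reported to hinder or help the conversion of fibroblasts, 21 of them measured, had a median log2 difference of -0.06 in neonatal cardiomyocytes over neonatal cardiac fibroblasts, and 0 were called there (limma; 3 had lower values at an unadjusted p under 0.05). In adult cardiomyocytes over neonatal cardiac fibroblasts 5 of the 21 fell and 0 rose, where 11.0% of all genes fell and 10.1% rose, with a median of -0.32. Ezh2, the methyltransferase of Polycomb repression, read 6.37 and 6.41 in adult cardiomyocytes, 9.27 and 9.10 in neonatal cardiomyocytes, and 8.50 and 9.02 in neonatal cardiac fibroblasts, so both neonatal cell types stood above the adult cells. It fell by 2.37 against the fibroblasts (adjusted p = 0.0078) and by 2.79 against neonatal cardiomyocytes (adjusted p = 0.0198), where it was the only called gene of the list. The call between the ages was lost without any 1 of the 4 cardiomyocyte arrays, without both neonatal arrays numbered 1 and with the titles' grouping. Ptbp1, a splicing repressor, fell by 2.30 (adjusted p = 0.0191), Fgfr1, a growth factor receptor, by 2.73 (adjusted p = 0.0196) and Tgfbr1, the type I TGF-beta receptor, by 1.46 (adjusted p = 0.0249) in adult cardiomyocytes over neonatal cardiac fibroblasts. All 5 calls were lost without either adult array, and fewer genes of the list were called without either fibroblast array. Fewer were also called with the titles' grouping and without both neonatal arrays numbered 1.

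Of 24 transcription factors of fibroblasts and mesenchyme, Tcf21, a marker of the cardiac fibroblast lineage, was the only called gene in neonatal cardiomyocytes over neonatal cardiac fibroblasts. It read 6.26 and 7.48 in adult cardiomyocytes, 7.37 and 7.84 in neonatal cardiomyocytes, and 12.31 and 12.09 in neonatal cardiac fibroblasts, a log2 difference of -4.60 ± 0.44 in neonatal cardiomyocytes (limma, adjusted p = 0.0424). Against the fibroblasts, 6 of the 24 fell in adult cardiomyocytes, where 11.0% of all genes did, and 1, Klf4, rose by 2.09 (adjusted p = 0.0178). Plagl1, an imprinted zinc finger gene, was the only one of the 24 called between the ages, at 8.92 and 9.45 in adult cardiomyocytes, 13.54 and 13.29 in neonatal cardiomyocytes, and 12.56 and 12.34 in neonatal cardiac fibroblasts, and fell by 4.23 in adult over neonatal cardiomyocytes (adjusted p = 0.0159). That call was lost with the mean of all probe sets, without the second neonatal cardiomyocyte array, without either adult array, without both neonatal arrays numbered 1 and with the titles' grouping. In adult cardiomyocytes over the fibroblasts all calls were lost without the first adult array. Fewer genes were called without the second adult array or either fibroblast array, and Klf4 lost its call without either fibroblast array. In neonatal cardiomyocytes over the fibroblasts Tcf21 kept its call without the second array of either neonatal group. It was lost without the first array of either neonatal group or without either adult array. With the titles' grouping 0 of the 24 were called in these comparisons, and without both neonatal arrays numbered 1, 1 fell in adult cardiomyocytes over the fibroblasts and 0 were called in neonatal cardiomyocytes.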
